A study of Mus musculus with 11 samples.

Results

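The regions described here are 154 sites of accessible chromatin at genes for transporters that carry glucose, amino acids and lactate across cell membranes, out of 38509 consensus peaks in mouse CD4 T cells. A peak was taken when its centre lay nearest to the RefSeq start site (GRCm38, the mm10 build) of a gene of the families Slc1a, Slc2a, Slc3a, Slc6a, Slc7a, Slc16a, Slc36a, Slc38a or Slc43a, so position alone chose the peaks. Of the 87 such genes with a RefSeq start site, 55 had at least 1 peak and 32 had none, among them Slc7a11, which encodes a cystine transporter. Nearest gene is a rule of position, and a peak can act on another gene.

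Chromatin was profiled by ATAC-seq, in which a transposase cuts open DNA, in 11 libraries of cells sorted fresh from mixed spleen and lymph node of wildtype C57BL/6 Foxp3-GFP mice with a polyclonal T cell repertoire and no treatment. The anergic cells (n = 3) were CD44high, FOXP3 negative, CD73high, FR4high and NRP1 positive, the surface phenotype of T cells that no longer answer antigen. The Treg cells (n = 3) were FOXP3 and CD25 positive, the Teff cells (n = 3) were CD44high, FOXP3 negative, CD73low and FR4low, and the naive cells (n = 2) were CD44low. Every group carries the Foxp3-GFP allele, the groups are defined by marker phenotype alone, and the ages of the mice are not in the labels. The labels do not say whether replicates came from separate mice, so the p-values speak of variation among these 11 libraries.

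Reads in peaks ranged from 14.7 to 68.8 M per library, and anergic 1 (21.5 M), Treg 2 (14.7 M) and Teff 3 (20.9 M) were the shallowest of their groups. The value given for a peak is the deposited signal, which equals whole reads times 1 factor per library and is not divided by peak width, so it compares libraries at 1 peak and not peaks or genes with each other. The naive libraries held 293 and 368 peaks at 1 read, the lowest value in the table, against 17 to 31 in each other library. Single peaks at 2 of the 6 listed sort marker genes, Foxp3 and Nt5e, are given by library. The Foxp3 peak at +3.6 kb had 1597, 1118 and 1278 units in Treg cells and 184 or less in each other library. The Nt5e peak at +5.0 kb, 1 of 5 at the gene for CD73, was highest in the 3 anergic libraries (534 to 638). For the other listed genes the peak of smallest adjusted p over the 6 comparisons is given. In anergic over naive cells it was 5.42 ± 0.18 (SE) at Cd44, 2.82 ± 0.20 at Izumo1r (FR4) and 1.25 ± 0.16 at Nrp1 on the log2 scale. At Il2ra (CD25) it was 2.25 ± 0.19 in Treg over naive cells. The limma adjusted p of these peaks was 9.67e-16, 1.46e-10, 8.3e-07 and 3.76e-09. Over all 45 peaks at the 6 genes, 16 were higher and 7 lower in anergic than in Teff cells (limma, adjusted p under 0.05). These are 35.6% and 15.6%, beside 15.9% and 16.8% of all peaks. Against Treg cells 10 were higher and 13 lower (22.2% and 28.9%, beside 19.4% and 14.8% of all peaks).

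Resting T cells live mainly on oxidation of nutrients, whereas activated T cells take up large amounts of glucose, glutamine, leucine and arginine and export lactate. Uptake is set in large part by how much transporter is made. Slc2a1 and Slc2a3 encode the main glucose carriers of lymphocytes. Slc7a5 pairs with the heavy chain Slc3a2 (CD98) to bring in leucine and other large neutral amino acids, Slc1a5 and the Slc38a family carry glutamine and other small neutral amino acids, Slc7a1 carries arginine and lysine, and the Slc16a family moves lactate and other monocarboxylates. Anergic T cells are known from cell culture work for weak nutrient uptake and low mTOR signalling.

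The 5 peaks below, whose signal set 1 group or a pair of groups apart, are printed on the plus strand of GRCm38/mm10 to show the sequence behind the values that follow. They are 3 that were higher or lower in anergic cells, 1 that was higher in Teff cells and 1 that was higher in naive cells. Each peak is printed over its own span, of 184 to 284 bases. Capitals mark matches within that span, on either strand, to the searched motif letters described at the end.
Slc7a5 +9.0 kb, chr8:121898521-121898804 (+): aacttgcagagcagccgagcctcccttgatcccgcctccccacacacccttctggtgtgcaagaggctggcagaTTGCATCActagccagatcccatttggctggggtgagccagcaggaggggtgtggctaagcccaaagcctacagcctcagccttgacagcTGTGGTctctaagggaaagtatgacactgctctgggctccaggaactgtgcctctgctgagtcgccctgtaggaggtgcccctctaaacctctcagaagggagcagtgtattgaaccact
Slc36a4 +5.2 kb, chr9:15714892-15715081 (+): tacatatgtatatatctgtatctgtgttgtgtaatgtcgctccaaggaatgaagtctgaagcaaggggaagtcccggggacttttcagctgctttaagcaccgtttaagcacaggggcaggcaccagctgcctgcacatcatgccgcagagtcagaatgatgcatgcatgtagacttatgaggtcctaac
Slc2a3 -0.8 kb, chr6:122743404-122743587 (+): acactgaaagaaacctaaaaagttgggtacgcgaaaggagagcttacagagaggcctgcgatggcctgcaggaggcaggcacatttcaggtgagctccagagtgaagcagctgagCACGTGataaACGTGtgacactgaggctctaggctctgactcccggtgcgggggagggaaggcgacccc
Slc38a8 -4.5 kb, chr8:119506111-119506348 (+): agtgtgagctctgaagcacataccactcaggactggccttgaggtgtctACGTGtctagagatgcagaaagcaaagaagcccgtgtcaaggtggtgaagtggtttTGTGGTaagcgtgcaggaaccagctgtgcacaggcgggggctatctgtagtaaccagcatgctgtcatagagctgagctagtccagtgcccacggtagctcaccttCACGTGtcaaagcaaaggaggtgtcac
Slc16a1 -7.5 kb, chr3:104631053-104631289 (+): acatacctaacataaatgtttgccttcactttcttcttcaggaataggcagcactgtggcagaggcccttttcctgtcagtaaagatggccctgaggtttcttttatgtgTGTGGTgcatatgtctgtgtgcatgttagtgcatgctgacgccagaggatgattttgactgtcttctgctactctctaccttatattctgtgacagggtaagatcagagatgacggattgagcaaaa
The Slc7a5 sequence held TTGCATCA, an ATF4-type amino acid response element, and TGTGGT, the core of RUNX sites. None of the searched motifs was found in the Slc36a4 sequence. The Slc2a3 sequence held the E-box CACGTG and the shorter ACGTG, the core of hypoxia response elements, which also lies within the E-box. The Slc38a8 sequence held a RUNX core, an E-box and ACGTG, and the Slc16a1 sequence a RUNX core. A match is a description of letters and not a bound site.

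The 154 peaks lay at a median of 7.62 kb from the start site, against 5.61 kb for all peaks on chromosomes, and had a median width of 310.5 bases, against 369 bases. Of them, 42 (27.3%) were promoter peaks, with a centre within 1000 bases of the start site, against 33.2% of all peaks, and 112 were distal. Introns held 66, of which 54 lay in an intron of the assigned gene itself, 66 were intergenic, and 15 lay in another gene. Slc38a1 had 10 peaks, Slc7a1, Slc16a1 and Slc38a2 had 9 each, Slc16a10 had 7 and Slc6a19 had 6.

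Transporter peaks passed between anergic and Teff cells in both directions, in a share near that of all peaks. Of the 154 peaks, 21 were higher and 30 lower in anergic than in Teff cells (limma, adjusted p under 0.05 over all peaks), or 33.1%, beside 32.8% of all peaks tested. By direction that is 13.6% higher and 19.5% lower, beside 15.9% and 16.8% of all peaks. Against Treg cells 32 were higher and 27 lower (38.3%, beside 34.1%; all peaks 19.4% higher and 14.8% lower). Against naive cells 36 were higher and 56 lower (59.7%, beside 50.5%; all peaks 25.3% higher and 25.1% lower).

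Treg cells were higher than Teff cells at 15 transporter peaks and lower at 36, or 33.1%, beside 32.6% of all peaks (14.4% higher and 18.2% lower). They were higher than naive cells at 28 and lower at 49, or 18.2% and 31.8%, beside 22.3% and 23.0% of all peaks (45.3% in either direction). Teff cells were higher than naive cells at 33 peaks and lower at 31 (41.6%, beside 40.1%; all peaks 22.7% higher and 17.4% lower). These comparisons share libraries, so they are not independent of each other.

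Medians of the log2 fold change over the 154 peaks were -0.08 for anergic over Teff, 0.03 for anergic over Treg and -0.16 for anergic over naive, beside -0.00, 0.04 and -0.04 over all peaks. They were -0.03 for Treg over Teff, -0.25 for Treg over naive and -0.11 for Teff over naive, beside -0.02, -0.04 and -0.03. Scaling each library by its total reads in peaks moved the split of higher and lower peaks to 26 and 37 for anergic over Treg and to 34 and 33 for Treg over naive. Over all peaks that scaling gave 13.2% higher and 19.7% lower for anergic over Treg, and 27.8% and 14.9% for Treg over naive. The balance of directions in those 2 comparisons thus rests on the scaling. That scaling moves the median of all peaks in Treg over naive from -0.04 to 0.12. In sorted cells in bulk, a larger share of cells with an open site and a more open site in each cell cannot be told apart.

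**Figure D1:**
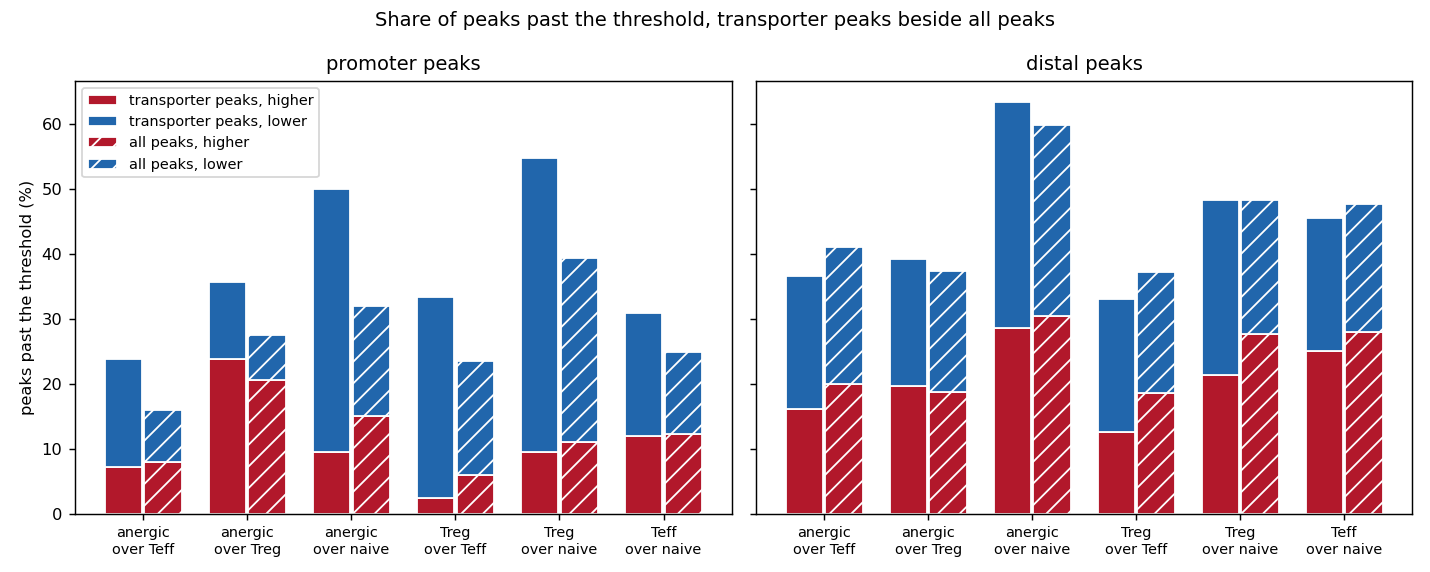
Share of peaks past the threshold (percent) in each of 6 comparisons, for promoter peaks on the left and distal peaks on the right. Plain bars are the transporter peaks (42 promoter, 112 distal), hatched bars all peaks, with higher in red and lower in blue: the bars of transporter promoters stand above those of all promoters in each comparison (54.8% beside 39.3% in Treg over naive), and distal bars lie on either side of those of all distal peaks.

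Promoter peaks passed in a larger share than all promoters did in each comparison. In anergic over naive cells 4 of the 42 transporter promoters were higher and 17 lower, beside 31.9% of all promoters in either direction. By direction that is 9.52% and 40.5%, beside 15.1% and 16.8% of all promoters. In Treg over naive cells 4 were higher and 19 lower (54.8%, beside 39.3%; all promoters 11.1% higher and 28.3% lower). By total reads 8 transporter promoters were higher and 12 lower, beside 2407 and 1938 of all 12760 promoters. The median of all promoters was then 0.03, beside -0.14 as deposited. In Treg over Teff cells 1 was higher and 13 lower (33.3%, beside 23.4%; all promoters 5.95% higher and 17.5% lower). The median was -0.23, beside -0.10 over all promoters. By total reads the medians for Treg over Teff were -0.13 and 0.01. Then 2 transporter promoters were higher and 8 lower, beside 1283 and 1340 of all 12760 promoters. In anergic over Teff cells 3 were higher and 7 lower (23.8%, beside 16.0%; all promoters 7.92% higher and 8.11% lower). In Teff over naive cells 5 and 8 passed (31.0%, beside 25.0%; all promoters 12.3% higher and 12.6% lower). In anergic over Treg cells 10 were higher and 5 lower (35.7%, beside 27.5%; all promoters 20.6% higher and 6.9% lower). By total reads these were 6 and 10, beside 1371 and 1572 of all 12760 promoters. Whether these shares differ from those of other promoters was not tested.

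Of the 112 distal transporter peaks, 18 were higher and 23 lower in anergic than in Teff cells (36.6%, beside 41.1% of all distal peaks). Against Treg cells 22 were higher and 22 lower (39.3%, beside 37.4%), and against naive cells 32 and 39 (63.4%, beside 59.8%). In Treg over Teff cells 14 were higher and 23 lower (33.0%, beside 37.2%), in Treg over naive cells 24 and 30 (48.2%, beside 48.2%), and in Teff over naive cells 28 and 23 (45.5%, beside 47.6%).

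By family, Slc7a, which carries arginine, lysine and leucine among others, had more higher than lower calls in anergic cells in each of their comparisons. Of its 23 peaks, 8 were higher and 2 lower when set against Teff cells, 9 and 0 against Treg cells, and 12 and 3 against naive cells. These are 34.8% and 8.7%, 39.1% and 0%, and 52.2% and 13.0%, to be read against 15.9% and 16.8%, 19.4% and 14.8%, and 25.3% and 25.1% of all peaks. Teff over naive cells also had 8 higher and 3 lower Slc7a peaks (34.8% and 13.0%, beside 22.7% and 17.4%), and Treg over naive cells 7 and 8. The monocarboxylate family Slc16a had more lower calls, in the other groups too. Of its 32 peaks, anergic cells were higher at 3 and lower at 12 in the comparison with Teff cells, at 2 and 8 with Treg cells, and at 3 and 20 with naive cells, or 37.5%, 25.0% and 62.5% lower. Treg over naive cells had 2 higher and 18 lower (56.2% lower, beside 23.0% of all peaks), and Teff over naive cells 5 and 12 (37.5% lower, beside 17.4%). Neighbouring peaks of 1 gene need not be independent, and a few genes held many of the peaks. Slc7a1 had 9 of the 23 Slc7a peaks, and 3, 5 and 5 of the higher calls of anergic over Teff, Treg and naive cells. Slc16a1 and Slc16a10 had 9 and 7 of the 32 Slc16a peaks, and 5 and 6 of the lower calls of anergic over naive cells. Whether a family differs from other peaks was not tested. Among the 33 Slc38a peaks, 1 was higher and 8 lower in anergic over Teff cells (3.03% and 24.2%, beside 15.9% and 16.8% of all peaks). Over Treg cells 6 were higher and 3 lower (18.2% and 9.09%, beside 19.4% and 14.8%). Slc2a was mixed, with 4 higher and 3 lower among 16 over Teff cells (25.0% and 18.8%, beside 15.9% and 16.8%).

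**Figure D2:**
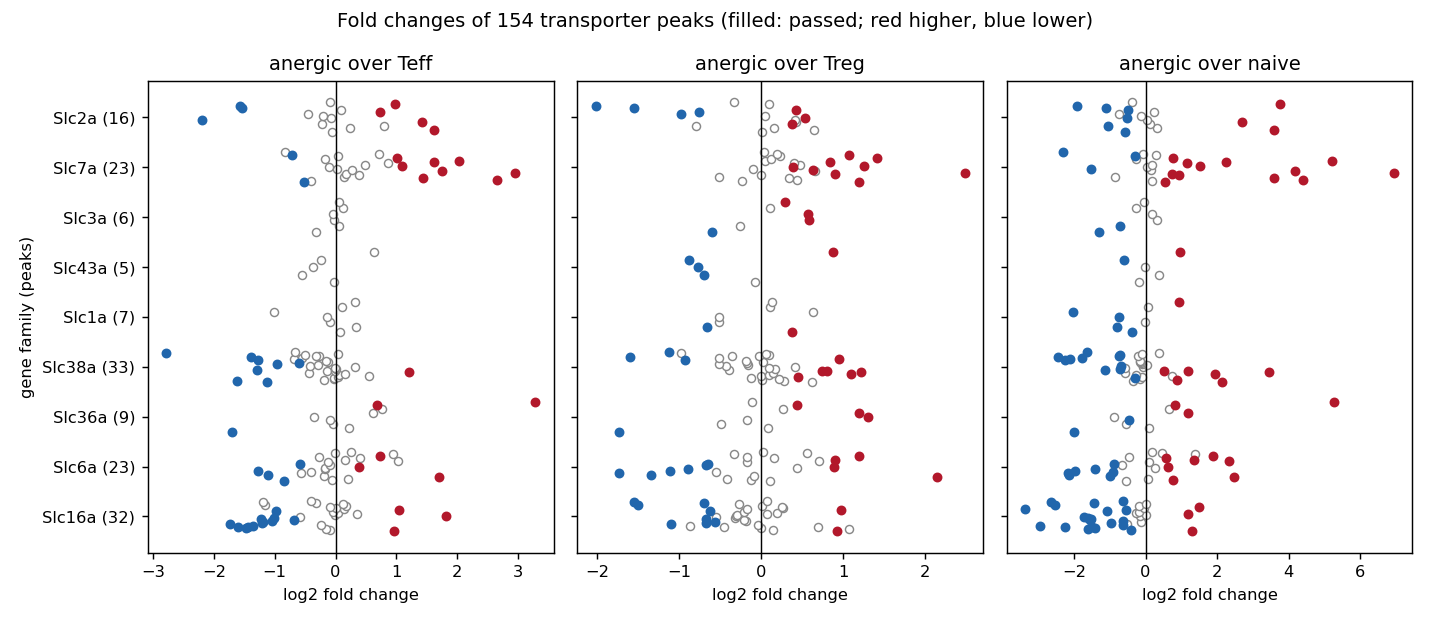
Log2 fold change of each of the 154 transporter peaks, in rows by gene family with the number of peaks in brackets, for anergic over Teff, anergic over Treg and anergic over naive cells. Filled points passed the threshold (red higher, blue lower) and open points did not: Slc7a points reach 2.95 on the log2 scale over Teff cells, and 20 of 32 Slc16a peaks were lower than in naive cells.

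At Slc2a3, which encodes the high-affinity glucose carrier GLUT3, both promoter peaks were lower in anergic cells than in each other group. The peak over the 5′ UTR at +0.1 kb (chr6:122742419-122742886) had 187, 275 and 267 units in anergic cells, 757, 656 and 709 in Treg cells, 793, 785 and 552 in Teff cells, and 534 and 493 in naive cells. The 3 anergic values lay below all 8 others. The log2 fold change was -1.54 ± 0.17 (SE) over Teff, -1.56 ± 0.17 over Treg and -1.10 ± 0.19 over naive cells (limma adjusted p = 3.51e-07, 5.43e-07 and 4.02e-05). Its upstream neighbour at -0.8 kb, printed above, had 39.8, 24.8 and 31.6 units in anergic cells, 133, 113 and 148 in Treg cells, 97.6, 90 and 100.01 in Teff cells, and 118 and 125 in naive cells. Anergic cells were again lowest, with log2 fold changes of -2.02 ± 0.26 over Treg, -1.58 ± 0.26 over Teff and -1.91 ± 0.30 over naive cells (limma adjusted p = 5.62e-06, 6.78e-05 and 1.08e-05).

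The remaining Slc2a3 peaks did not share this pattern. At -16.2 kb the signal was 101, 132 and 132 units in anergic, 92.3, 117 and 134 in Treg, 69.2, 47.9 and 68.3 in Teff, and 11.4 and 5.42 in naive cells. All anergic, Treg and Teff libraries were above the naive ones, with log2 fold changes of 3.77 ± 0.36 in anergic, 3.68 ± 0.36 in Treg and 2.80 ± 0.36 in Teff cells (limma adjusted p = 1.25e-08, 3.52e-08 and 2.01e-06). Anergic cells were above Teff cells by 0.97 ± 0.32 (limma adjusted p = 0.0234). The peak at -22.1 kb passed in no comparison.

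The other glucose carriers of lymphocytes showed smaller differences. The promoter of Slc2a1, the gene of GLUT1, averaged 4146 ± 421 units in anergic, 4002 ± 283 in Treg, 4759 ± 349 in Teff (SD, n = 3 each) and 4507 ± 121 in naive cells (n = 2). It passed in Treg over Teff alone, at -0.25 ± 0.10 (limma adjusted p = 0.0498), a call lost under most alternatives. Its peak at -2.8 kb averaged 1141 ± 323 in anergic, 775 ± 113 in Treg, 1184 ± 174 in Teff and 1602 ± 159 units in naive cells. Treg over naive cells was -1.05 ± 0.18 on the log2 scale (limma adjusted p = 6.72e-05).

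Slc2a8 and Slc2a6 encode carriers of intracellular membranes. Slc2a8 had a peak at -1.8 kb with 140.1 ± 34.3 units in anergic, 109 ± 51.6 in Treg, 50.6 ± 0.939 in Teff and 20.3 ± 3.49 in naive cells. It was higher in anergic than Teff cells by 1.42 ± 0.32 on the log2 scale (limma adjusted p = 0.00146). A peak at -51.0 kb, in an intron of Garnl3, ran the other way, with 44.8, 49.0 and 28.2 units in anergic, 18, 34.1 and 41.8 in Treg, 183, 219.7 and 157 in Teff, and 38.2 and 39.5 in naive cells. The Teff libraries stood alone there, and the fold changes were -2.19 ± 0.35 for anergic over Teff, -2.60 ± 0.35 for Treg over Teff and 2.22 ± 0.39 for Teff over naive (limma adjusted p = 3.88e-05, 6.61e-06 and 9.37e-05). Slc2a6 had a peak at -15.7 kb with 65.5 ± 15.2 units in anergic, 113 ± 14.5 in Treg, 39.4 ± 17.0 in Teff and 136 ± 7.99 in naive cells, lowest in Teff cells, and its promoter passed in no comparison.

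A pair of promoters of other sugar carriers, chosen after their values were seen, moved in opposite directions. Slc2a13 encodes a myo-inositol transporter, and its start site peak had 265, 158 and 188 units in anergic, 115, 138 and 130.4 in Treg, 63.0, 55.3 and 76.7 in Teff, and 12.2 and 20.1 in naive cells. No 2 groups overlapped there, and the fold change was 1.61 ± 0.28 for anergic over Teff and 3.58 ± 0.32 for anergic over naive cells (limma adjusted p = 0.000108 and 3.2e-09). At Slc2a4, the insulin-responsive glucose carrier of muscle and fat, the promoter had 1159 ± 8.07 units in anergic, 1149 ± 58.7 in Treg and 1207 ± 75.4 in Teff cells, below 1715 ± 6.86 in naive cells (-0.56, -0.58 and -0.51 on the log2 scale, limma adjusted p = 0.000337, 0.000376 and 0.00143).

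**Figure D3:**
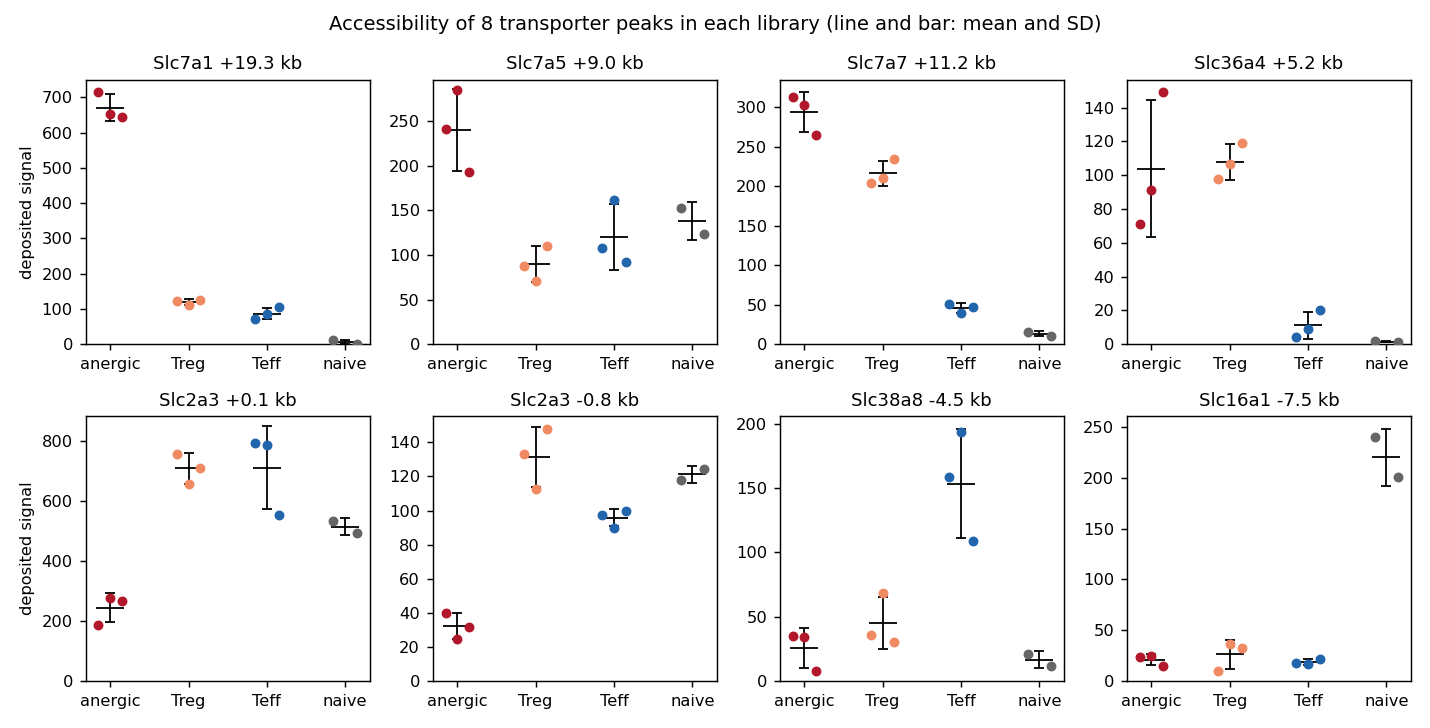
Deposited signal (linear axis from 0) of 8 transporter peaks in each library, with points for libraries, a line for the group mean and a bar for the SD. Anergic cells stand highest at Slc7a1 +19.3 kb (645 to 715 units) and lowest at both Slc2a3 peaks, anergic and Treg cells are both high at Slc7a7 and Slc36a4, Teff cells are highest at Slc38a8, and naive cells at Slc16a1 -7.5 kb.

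The largest named rise of anergic over Treg and naive cells was at Slc7a1, the gene of the arginine and lysine carrier CAT-1. An intronic peak at +19.3 kb had 715, 654 and 645 units in anergic cells, 123, 111 and 125 in Treg cells, 71.3, 85.1 and 105 in Teff cells, and 10.6 and 1.55 in naive cells. Anergic libraries lay far above the rest, Treg and Teff libraries sat close together, and naive libraries were near the lowest value of the table. The log2 fold change was 2.95 ± 0.36 for anergic over Teff and 2.48 ± 0.36 for anergic over Treg cells (limma adjusted p = 1.49e-06 and 1.91e-05), and Treg over Teff did not pass (0.47 ± 0.36, limma adjusted p = 0.34).

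Over naive cells the Slc7a1 +19.3 kb change was 6.95 ± 0.40 on the log2 scale (limma adjusted p = 3.73e-12). The naive libraries had 13 and 2 reads there, and the value was 8.04 without naive 1, 5.86 without naive 2 and 6.06 with a pseudocount of 5. As a ratio of reads scaled by the library factors, anergic over naive signal was 111-fold, with a 95% counting interval of 67.1 to 199 that covers counting error only.

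Nearby, the Slc7a1 intronic peak at +15.1 kb had 427 ± 32.1 units in anergic, 269.8 ± 26.6 in Treg, 128 ± 28.4 in Teff and 26.6 ± 20.4 in naive cells. It exceeded Teff by 1.74 ± 0.29 in anergic and 1.08 ± 0.29 in Treg cells on the log2 scale (limma adjusted p = 6.72e-05 and 0.00673). The intergenic peak at -19.3 kb had 204, 128 and 163 units in anergic cells and 45.7 to 85.1 in the other 8 libraries, a log2 fold change of 1.09 ± 0.27 over Teff cells (limma adjusted p = 0.0034). In contrast, the peak at +4.6 kb had 147 ± 12.1 units in anergic, 163 ± 51.3 in Treg and 146 ± 18.9 in Teff cells and 430.2 ± 71.8 in naive cells. That is -1.53 ± 0.25 for anergic over naive (limma adjusted p = 1.74e-05).

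At +50.2 kb anergic (1566 ± 189.9 units) and Teff cells (1392 ± 93.2) lay above Treg (835 ± 42.5) and naive cells (931 ± 2.02). The Slc7a1 promoter itself was lower in Treg cells (6312 ± 641 units) than in Teff cells (8866 ± 641), by 0.49 ± 0.09 on the log2 scale (log2 fold change -0.49, limma adjusted p = 0.000177), and anergic (8259 ± 428) and Teff cells did not differ past the threshold. In all, 3 of the 9 Slc7a1 peaks were higher and 0 lower in anergic than in Teff cells, 5 and 0 against Treg cells, and 5 and 1 against naive cells. The peaks of this locus outside the rule for named peaks were chosen after their values were seen.

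**Figure D4:**
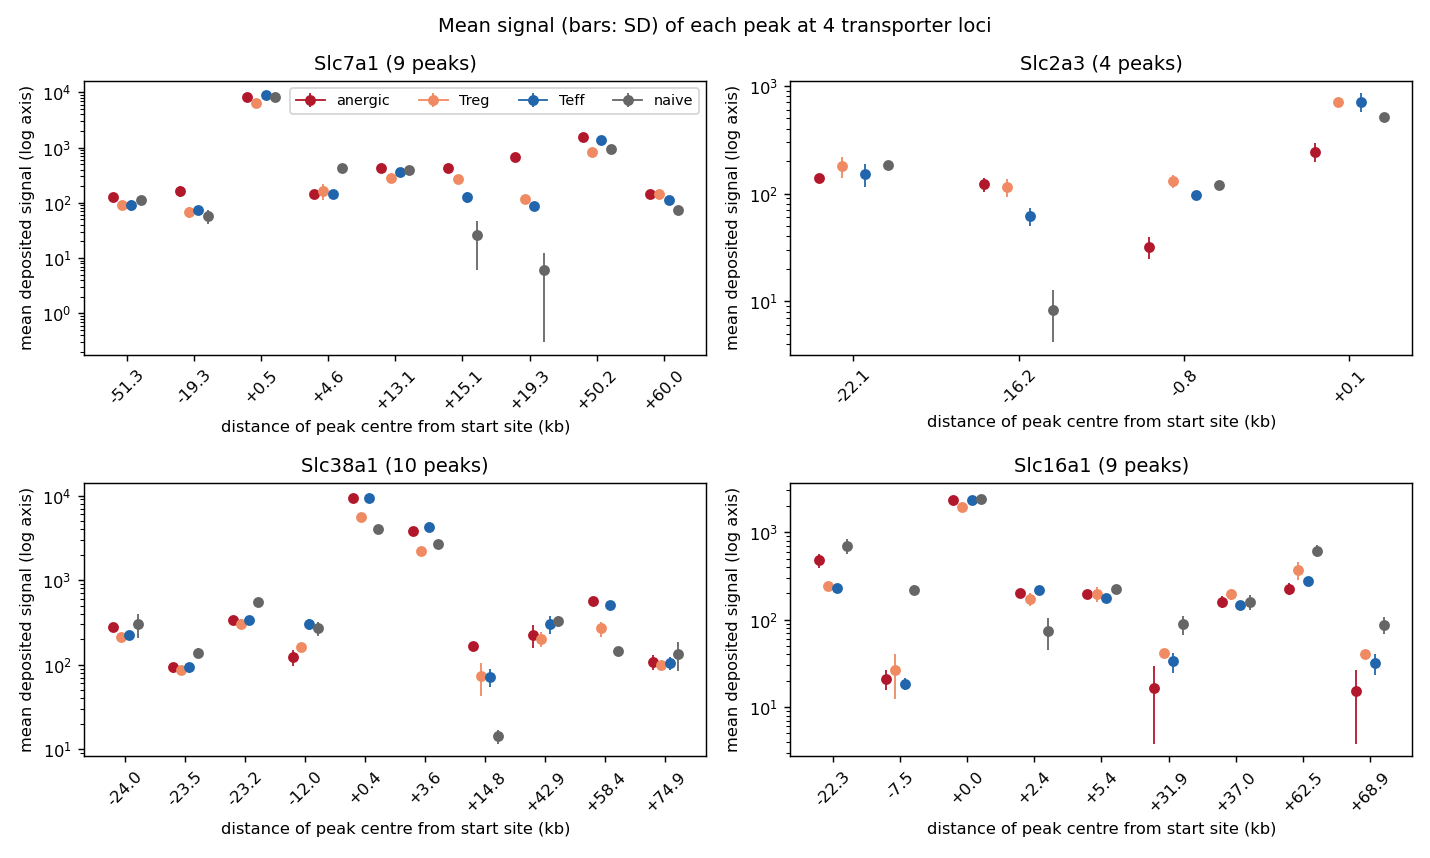
Mean deposited signal per group (log axis) of every peak at Slc7a1, Slc2a3, Slc38a1 and Slc16a1, ordered by the distance of the peak centre from the start site in kb. Bars are the SD, with lower bars stopped short of 0 where the SD exceeds the mean, and show anergic cells apart at Slc7a1 +19.3 kb and at both Slc2a3 promoter peaks, while the means of the Slc16a1 promoter lie between 1949 and 2401 units.

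Other cationic carriers were seen at distant sites. The Slc7a3 gene, for a related arginine carrier, had 3 peaks in introns of Snx12. The one at -43.4 kb averaged 119 ± 19.3 units in anergic, 55.6 ± 3.42 in Treg, 194 ± 25.4 in Teff and 95.2 ± 5.49 in naive cells. The log2 fold change was -1.78 ± 0.23 for Treg over Teff (limma adjusted p = 4.25e-06). At -62.3 kb anergic (43.5 ± 4.69), Treg (43.3 ± 11.3) and Teff cells (86.8 ± 43.8) were below naive cells (219.5 ± 17.0). The log2 fold changes were -2.31 ± 0.40, -2.34 ± 0.40 and -1.49 ± 0.40 (limma adjusted p = 4.68e-05, 6.36e-05 and 0.00522).

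Slc7a7 and Slc7a10 encode light chains that work with Slc3a2. Slc7a7 exports arginine and lysine in exchange for neutral amino acids, and Slc7a10 carries small neutral amino acids such as serine. At Slc7a7 the intronic peak at +11.2 kb (chr14:54398141-54398498) had 313, 303 and 265 units in anergic, 204, 211 and 234 in Treg, 51.2, 39.6 and 46.7 in Teff, and 15.4 and 10.8 in naive cells. The 4 groups did not overlap, in the order anergic, Treg, Teff, naive, and the step between anergic and Treg cells did not pass (0.44 ± 0.24 on the log2 scale, limma adjusted p = 0.175). The change over Teff cells was 2.66 ± 0.24 in anergic and 2.22 ± 0.24 in Treg cells (limma adjusted p = 3.73e-08 and 5.38e-07). Its neighbour at +10.5 kb, chosen after its values were seen, had 257 ± 13.6, 204 ± 27.4, 94.9 ± 18.2 and 24.1 ± 18.8 units in anergic, Treg, Teff and naive cells.

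At Slc7a10 -9.5 kb the signal was 113, 166 and 111 units in anergic, 134, 147 and 97.5 in Treg, 19.4, 37.2 and 40.0 in Teff, and 5.69 and 0.774 in naive cells. Anergic and Treg libraries overlapped and both lay above Teff, with 2.02 ± 0.44 and 1.98 ± 0.44 on the log2 scale (limma adjusted p = 0.00104 and 0.00151). The naive libraries held 7 and 1 reads, and the ratio of anergic over naive signal was 43.4, with a 95% counting interval of 21.9 to 101. On the log2 scale the change was 5.22, and it was 6.18 without naive 1, 4.27 without naive 2 and 4.08 with a pseudocount of 5.

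The leucine carrier complex changed less. At Slc7a5 the intronic peak at +9.0 kb (chr8:121898521-121898804), printed above with its TTGCATCA, had 240.4, 285 and 193 units in anergic, 87.8, 70.2 and 110.2 in Treg, 107, 162 and 91.7 in Teff, and 153 and 123 in naive cells. The anergic libraries lay above the other 8, by 1.42 ± 0.25 over Treg, 1.01 ± 0.25 over Teff and 0.78 ± 0.28 over naive cells on the log2 scale (limma adjusted p = 0.000164, 0.00297 and 0.0236). The Slc7a5 promoter averaged 4527 ± 534 units in anergic, 3856 ± 133 in Treg, 4360.5 ± 199 in Teff and 5549 ± 116 in naive cells, with -0.53 ± 0.10 for Treg over naive (limma adjusted p = 0.000303). Its smaller falls in anergic and Teff against naive cells were lost without 1 library.

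At Slc3a2 the promoter peak at +0.4 kb had 3619, 3886 and 3816 units in anergic, 2577, 2401 and 2679 in Treg, 4145, 3811 and 3654 in Teff, and 3617 and 3031 in naive cells. Treg cells were below each other group, with -0.60 ± 0.10 for Treg over Teff, and 0.56 ± 0.10 for anergic over Treg (limma adjusted p = 4.82e-05 and 0.000102). The Slc3a2 peak nearest to a start site, shared with the start of Snhg1, averaged 4866 ± 397 in anergic, 3982 ± 315 in Treg, 4675 ± 358 in Teff and 5013 ± 77.2 units in naive cells, and its calls against Treg cells were lost when libraries were scaled by total reads. The Slc7a6 promoter, of another light chain, averaged 2189 ± 214 in anergic, 2005 ± 60.4 in Treg, 2470.2 ± 170.1 in Teff and 2606 ± 13.7 units in naive cells, and its Treg calls were likewise lost by total reads.

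Slc43a1 and Slc43a2 encode uniporters of large neutral amino acids. At Slc43a2 the intronic peak at +9.3 kb averaged 339 ± 63.9 units in anergic, 621 ± 102 in Treg, 399 ± 44.5 in Teff and 516 ± 138 in naive cells, with a log2 fold change of -0.88 ± 0.18 for anergic over Treg (limma adjusted p = 0.000666). Its promoter passed in no comparison. The nearest Slc43a1 peak, at -1.3 kb, had 148 ± 33.1 units in anergic, 80.6 ± 18.7 in Treg, 94.6 ± 9.65 in Teff and 74.2 ± 5.33 in naive cells, and its calls against Treg and naive cells were each lost without 1 library.

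Among carriers of glutamine and other small neutral amino acids, the promoter of Slc38a1 passed in 5 of the 6 comparisons. It had 10189.9, 8531 and 9046 units in anergic, 5687, 5432 and 5474 in Treg, 9369, 9438 and 9026 in Teff, and 3753 and 4306 in naive cells. Anergic and Teff libraries overlapped, Treg libraries lay below both and naive libraries lay lowest. The fold change was 0.74 ± 0.09 for anergic over Treg, 1.20 ± 0.10 for anergic over naive, -0.75 ± 0.09 for Treg over Teff and 1.21 ± 0.10 for Teff over naive cells on the log2 scale (limma adjusted p = 1.25e-06, 6.93e-10, 9.05e-07 and 1.56e-09). Treg cells exceeded naive cells by 0.46 ± 0.10 (limma adjusted p = 0.000488).

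Within the gene, Slc38a1 peaks at +3.6 kb and +58.4 kb, chosen after their values were seen, were likewise higher in anergic and Teff than in Treg and naive cells, with 3847 ± 426 and 567 ± 44.6 units in anergic, 2213 ± 228 and 269 ± 54.4 in Treg, 4269 ± 587 and 507 ± 26.5 in Teff, and 2699.6 ± 175 and 147 ± 11.3 in naive cells. The peak at +14.8 kb was highest in anergic cells, with 187, 161 and 146 units, against 67.6, 109 and 46.8 in Treg, 65.1, 57.8 and 91.7 in Teff, and 16.2 and 12.4 in naive cells. It passed against each, with 1.21 ± 0.32 over both Treg and Teff and 3.44 ± 0.36 over naive cells (limma adjusted p = 0.00616, 0.00552 and 5.11e-08). Upstream, at -12.0 kb, anergic (123 ± 25.4) and Treg cells (159.7 ± 9.29) were below Teff (301 ± 41.9) and naive cells (269 ± 53.1), a peak also chosen after its values were seen.

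Slc38a2, the neighbouring gene on chromosome 15, encodes the amino acid carrier that is induced by amino acid lack. Its promoter averaged 6552 ± 540.4 units in anergic, 6497 ± 774 in Treg, 7119 ± 555 in Teff and 7329 ± 837 in naive cells and passed in no comparison. Its distal peak at -71.2 kb had 103, 81.2 and 48.4 units in anergic, 52.9, 19.2 and 53.2 in Treg, 165, 101 and 102 in Teff, and 344 and 299 in naive cells. Naive cells were above all others, with -3.05 ± 0.39 for Treg over naive on the log2 scale (limma adjusted p = 1.83e-06). The peak at -20.6 kb averaged 36.2 ± 19.5 in anergic, 63.8 ± 11.5 in Treg, 80.7 ± 7.43 in Teff and 158 ± 5.81 units in naive cells, -2.25 ± 0.39 for anergic over naive (limma adjusted p = 4.03e-05).

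The promoter of Slc1a5, the gene of the glutamine carrier ASCT2, passed in no comparison, with 2382 ± 166 units in anergic, 2217 ± 49.5 in Treg, 2203 ± 65.9 in Teff and 2267 ± 186 in naive cells. Its intronic peak at +2.1 kb was higher in anergic (291 ± 29.9), Treg (269 ± 58.1) and Teff cells (237 ± 50.6) than in naive cells (151 ± 6.26), by 0.94 ± 0.22, 0.81 ± 0.22 and 0.63 ± 0.22 on the log2 scale (limma adjusted p = 0.00127, 0.0056 and 0.0297). The promoter of Slc1a4, a carrier of alanine and serine, was lower in Treg (3880.0 ± 466) than in naive cells (6511 ± 581), -0.75 ± 0.12 on the log2 scale (limma adjusted p = 1.81e-05), with 5039.6 ± 473 in anergic and 4774 ± 433 in Teff cells. Its falls in anergic and Teff against naive cells were lost without naive 1.

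Slc38a9 encodes a lysosomal arginine sensor of the mTORC1 pathway, and its promoter was lowest in Treg cells. It had 1494 ± 121 units in anergic, 1091 ± 107 in Treg, 1454 ± 129 in Teff and 1587 ± 90 in naive cells. The differences were -0.54 ± 0.13 for Treg over naive, 0.45 ± 0.11 for anergic over Treg and -0.41 ± 0.11 for Treg over Teff (limma adjusted p = 0.00146, 0.00399 and 0.00772, the last lost without Teff 1).

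At 3 peaks of Slc38a8 and Slc38a10, less studied members of the family, Teff cells stood highest. Slc38a8, a glutamine carrier best known in the eye, had 1 peak, at -4.5 kb (chr8:119506111-119506348), with 34.8, 33.7 and 7.39 units in anergic, 36, 68.1 and 30.4 in Treg, 159, 193 and 108 in Teff, and 21.1 and 11.6 in naive cells. Teff libraries lay above the other 8. The fold change was -2.78 ± 0.50 for anergic over Teff (limma adjusted p = 0.000137), -2.09 without anergic 3, and 3.17 ± 0.56 for Teff over naive (limma adjusted p = 8.93e-05). Treg over Teff was -1.80 ± 0.50 (limma adjusted p = 0.00795), which was lost without Teff 2 (limma adjusted p = 0.0533).

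Slc38a10 had 2 intronic peaks with high Teff values. At +8.6 kb the signal was 91.2, 133 and 63.1 units in anergic, 54.1, 123 and 64.6 in Treg, 293, 302 and 260.0 in Teff, and 107 and 129 in naive cells. The log2 fold change was -1.62 ± 0.29 for anergic over Teff and -1.90 ± 0.29 for Treg over Teff (limma adjusted p = 0.000141 and 3.22e-05). At +11.8 kb it was 103 ± 33.7 in anergic, 67.5 ± 25.1 in Treg, 219 ± 34.2 in Teff and 21.9 ± 3.55 units in naive cells, 3.27 ± 0.34 for Teff over naive (limma adjusted p = 1.01e-07). Teff libraries were the highest at both.

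Beside these Teff peaks stands a count at marker genes of other cell types. Of 30 peaks at genes of CD8, NK and innate-like T cells, 1 was higher and 20 lower in anergic than in Teff cells (all peaks 15.9% and 16.8%). In Treg over Teff cells 2 were higher and 21 lower (all peaks 14.4% and 18.2%). In Teff over naive cells 19 were higher and 3 lower (all peaks 22.7% and 17.4%). Anergic cells were also higher than naive cells at 15 and lower at 4 (all peaks 25.3% and 25.1%). Treg cells were higher than naive cells at 11 and lower at 3 (all peaks 22.3% and 23.0%). Anergic cells were higher than Treg cells at 14 and lower at 3 (all peaks 19.4% and 14.8%). The count rests mostly on 2 loci, as Zbtb16 had 13 of the 30 peaks and Klrb1c 11. Their summed signal was 21203 to 26648 units in anergic, 19657 to 25076 in Treg, 26042 to 30336 in Teff and 23963 to 24446 in naive libraries. The listed genes Cd8a, Ncr1 and Klrd1 had no peak. The part of such cells, or of such programs within CD4 cells, in the Teff peaks was not tested.

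The Slc38a4 gene, chiefly a liver carrier, had a distant peak at +85.3 kb with 342, 73.3 and 148 units in anergic, 582, 449 and 405 in Treg, 472, 353 and 402 in Teff, and 959.5 and 763 in naive cells. Anergic libraries were the lowest but spread widely, with -1.61 ± 0.32 over Treg cells (limma adjusted p = 0.000598). That change was -2.21 without the shallowest library of the anergic, Treg and Teff groups. Over all alternative runs it lay between -2.21 and -1.07 and passed in each. At the Slc38a3 start site anergic cells had 33.8 ± 3.81 units, against 80.3 ± 33.4 in Treg, 54.9 ± 11.2 in Teff and 113 ± 48.1 in naive cells. Its fall against Treg cells, -1.12 ± 0.36 (limma adjusted p = 0.0201), was lost without 1 Treg library.

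Proton-coupled amino acid carriers of the Slc36a family sit partly on lysosomes and feed the mTORC1 pathway. At Slc36a4 the intronic peak at +5.2 kb (chr9:15714892-15715081) had 71.3, 91.2 and 149 units in anergic, 98.0, 106 and 119 in Treg, 4.15, 9.08 and 20.0 in Teff, and 1.62 and 1.55 in naive cells. Anergic and Treg libraries overlapped, and the lowest of them was more than 3 times the highest Teff library. The change over Teff cells was 3.28 ± 0.51 in anergic and 3.40 ± 0.51 in Treg cells on the log2 scale (limma adjusted p = 2.93e-05 and 2.53e-05). Each naive library held 2 reads, and the ratio to naive signal was 69.2 in anergic (95% counting interval 26.9 to 255), 67.8 in Treg (26.1 to 251) and 5.62 in Teff cells (1.97 to 22.0).

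The Slc36a4 promoter had 1633, 1409.6 and 1645 units in anergic, 1181, 1226 and 1064 in Treg, 1086, 953 and 885 in Teff, and 799 and 972 in naive cells, and was thus highest in each anergic library. It exceeded Teff by 0.68 ± 0.12 and naive cells by 0.82 ± 0.14 on the log2 scale (limma adjusted p = 0.000141 and 2.71e-05), and the excess over Treg cells (0.43 ± 0.12, limma adjusted p = 0.00905) was lost by total reads. A peak at -27.7 kb averaged 103 ± 14.4 units in anergic, 44.1 ± 5.57 in Treg, 67.1 ± 12.6 in Teff and 43.9 ± 3.55 in naive cells, 1.20 ± 0.29 for anergic over Treg (limma adjusted p = 0.00322).

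Slc36a3 showed the reverse in an intron at +3.0 kb, with 23.2, 41.6 and 37.6 units in anergic, 109, 132 and 100.03 in Treg, 101, 93.3 and 140.0 in Teff, and 121 and 149 in naive cells. The anergic libraries were below the other 8, with log2 fold changes of -1.70 ± 0.28 over Teff, -1.74 ± 0.28 over Treg and -1.99 ± 0.32 over naive cells (limma adjusted p = 6.4e-05, 6.94e-05 and 1.57e-05). At Slc36a1, the promoter had 1003 ± 122 units in anergic, 1123 ± 38.3 in Treg, 1061 ± 36.8 in Teff and 1388 ± 99.6 in naive cells. Its peak at +17.1 kb was lowest in Treg cells, with 101 ± 36.5 in anergic, 43.7 ± 23.6 in Treg, 124 ± 16 in Teff and 184 ± 59.5 in naive cells. The change was -2.19 ± 0.42 for Treg over naive on the log2 scale (limma adjusted p = 0.000203).

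The Slc6a family carries taurine, creatine, glycine and neutral amino acids with sodium and chloride. Slc6a19, the gene of a neutral amino acid carrier of gut and kidney, had 6 peaks with opposite changes. At +6.9 kb the signal was 277, 266 and 174 units in anergic, 58.6, 63.9 and 38 in Treg, 56.8, 92.5 and 68.3 in Teff, and 55.2 and 30.2 in naive cells, so that anergic libraries lay above all others. The excess was 2.14 ± 0.31 over Treg, 1.70 ± 0.31 over Teff and 2.49 ± 0.35 over naive cells on the log2 scale (limma adjusted p = 1.84e-05, 0.000164 and 2.77e-06). At -13.5 kb it was 94.5, 31.1 and 28.9 units in anergic, 133, 162 and 154 in Treg, 62.3, 76.8 and 60 in Teff, and 221 and 183 in naive cells. There anergic and Teff libraries overlapped below Treg and naive ones, with -1.74 ± 0.34 for anergic over Treg and -1.59 ± 0.38 for Teff over naive (limma adjusted p = 0.000434 and 0.00176). A further peak at -2.4 kb, chosen after its values were seen, averaged 518 ± 122 units in anergic, 1301 ± 163 in Treg, 1090.3 ± 11.6 in Teff and 2258 ± 408 in naive cells.

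At the taurine carrier Slc6a6, the intronic peak at +22.2 kb had 392 ± 21 units in anergic, 214 ± 51.2 in Treg, 355 ± 43.5 in Teff and 154 ± 24.5 in naive cells. On the log2 scale that is 1.35 ± 0.21 for anergic over naive and 0.90 ± 0.19 for anergic over Treg (limma adjusted p = 1.32e-05 and 0.000965). Its promoter averaged 2886 ± 187 in anergic, 3258 ± 114 in Treg, 3141 ± 108 in Teff and 2676 ± 26 units in naive cells. Both peaks at the start site of the creatine carrier Slc6a8 passed in no comparison. A promoter peak of the glycine carrier Slc6a9 at +0.9 kb, chosen after its values were seen, was highest in anergic cells (1101 ± 29.7, against 598 ± 76.2 in Treg, 847 ± 109 in Teff and 715 ± 73.7 in naive cells), 0.89 ± 0.13 for anergic over Treg (limma adjusted p = 2.61e-05).

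Among the monocarboxylate carriers several peaks stood highest in naive cells. Slc16a1, the gene of the lactate carrier MCT1, had a peak at -7.5 kb (chr3:104631053-104631289) with 23.2, 24.8 and 14.8 units in anergic, 10.1, 36.2 and 32.9 in Treg, 17.3, 16.5 and 21.7 in Teff, and 240.5 and 201 in naive cells. The anergic, Treg and Teff groups overlapped at a low level and naive libraries stood alone. The change was -3.36 ± 0.53 for anergic, -3.19 ± 0.53 for Treg and -3.51 ± 0.53 for Teff over naive cells on the log2 scale (limma adjusted p = 1.27e-05, 3.91e-05 and 1.37e-05). At -22.3 kb the level was intermediate in anergic cells, with 393, 572 and 476 units, against 251, 238 and 233 in Treg, 209, 237 and 248 in Teff, and 787 and 602 in naive cells. Anergic cells were above Teff by 1.04 ± 0.17 and above Treg by 0.98 ± 0.17 and below naive cells at -0.53 ± 0.19 (limma adjusted p = 4.41e-05, 0.000122 and 0.0212).

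The Slc16a1 promoter stayed close between groups, with 2343 ± 225 units in anergic, 1949 ± 106 in Treg, 2329 ± 128 in Teff and 2401 ± 251 in naive cells. Its 1 call, -0.30 ± 0.12 for Treg over naive (limma adjusted p = 0.0402), was lost with edgeR. Of the other peaks of the gene, chosen after their values were seen, those at +31.9, +62.5 and +68.9 kb were also highest in naive cells, and the intronic one at +2.4 kb was lowest in naive cells (204 ± 18.4 in anergic, 171 ± 28.6 in Treg, 218 ± 11 in Teff and 74.4 ± 29.4 in naive cells).

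Slc16a3 encodes MCT4, the lactate exporter of glycolytic cells. Its upstream peak at -7.3 kb (chr11:120941029-120941294) had 159, 199.8 and 140.4 units in anergic, 197, 206 and 209 in Treg, 38.1, 52.0 and 50 in Teff, and 179 and 188 in naive cells. Teff libraries lay below the other 8. The log2 fold change was 1.81 ± 0.22 for anergic over Teff, 2.12 ± 0.22 for Treg over Teff and -1.96 ± 0.25 for Teff over naive cells (limma adjusted p = 1.46e-06, 2.44e-07 and 1.33e-06). The Slc16a3 promoter passed in no comparison, with 383 ± 42.6 units in anergic, 472 ± 72.3 in Treg, 386 ± 15.5 in Teff and 379 ± 43.1 in naive cells. The nearest other start site, of Ccdc57, lay 8.29 kb from the upstream peak.

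Slc16a10 encodes a carrier of aromatic amino acids. Its peak at -29.2 kb had 41.4, 39.0 and 43.7 units in anergic, 10.1, 46.8 and 32.9 in Treg, 137, 101 and 108 in Teff, and 223 and 179 in naive cells. Anergic and Treg libraries lay below Teff and naive ones, with -2.24 ± 0.44 for anergic over naive, -2.14 ± 0.39 for Treg over Teff and -2.93 ± 0.44 for Treg over naive on the log2 scale (limma adjusted p = 0.00018, 0.000243 and 1.23e-05). Without Treg 1 the change over Teff was -1.52. The peak at -21.3 kb, chosen after its values were seen, was likewise lower in anergic and Treg than in Teff and naive cells (149 ± 24.8, 148 ± 2.28, 430.1 ± 159 and 400.0 ± 90.4 units in anergic, Treg, Teff and naive cells), while the promoter was highest in naive cells (2790.0 ± 121 in anergic, 2539 ± 308 in Treg, 2964 ± 220.4 in Teff and 3674 ± 179.8 in naive cells).

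Slc16a6, whose product exports ketone bodies in zebrafish liver, was lower in anergic than in Teff cells at its 4 peaks. At +2.5 kb the signal was 68.0, 28.5 and 24.2 units in anergic, 78.8, 72.4 and 86.1 in Treg, 142, 115 and 112 in Teff, and 37.4 and 72.8 in naive cells. The log2 fold change was -1.73 ± 0.36 for anergic over Teff (limma adjusted p = 0.000569). Its start site peak, which lies 0.315 kb from a start of Arsg and was chosen after its values were seen, had 2374, 2349 and 2410.0 units in anergic, 2862, 2582 and 2663 in Treg, 5364, 5041 and 4392 in Teff, and 3666 and 3658 in naive cells. Teff libraries were the highest and anergic ones the lowest, -1.05 ± 0.09 for anergic over Teff and -0.86 ± 0.09 for Treg over Teff on the log2 scale (limma adjusted p = 2.41e-08 and 4.14e-07).

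Taking 23 transporters with a known part in T cells or nutrient sensing as a core list, 22 had a peak and 21 a promoter peak. The promoter nearest to a start site passed in no comparison for 6 of them (Slc2a6, Slc1a5, Slc38a2, Slc43a2, Slc6a8 and Slc16a3). In anergic over Teff cells 1 of the 21 was higher (Slc36a4) and 1 lower (Slc2a3), beside 7.92% and 8.11% of all promoters. In anergic over Treg cells 7 were higher and 1 lower (all promoters 20.6% and 6.9%), and in anergic over naive cells 2 and 5 (15.1% and 16.8%). In Treg over Teff cells 0 were higher and 7 lower (5.95% and 17.5%), in Treg over naive cells 3 and 8 (11.1% and 28.3%), and in Teff over naive cells 2 and 4 (12.3% and 12.6%).

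Many of these core promoter calls were lost under at least 1 of the alternatives. In Teff over naive cells all 4 lower calls (Slc7a5, Slc1a4, Slc16a10 and Slc36a1) and 1 of 2 higher calls (Slc2a8) were lost under some alternative. In Treg over naive cells 2 of 3 higher (Slc6a6 and Slc36a4) and 3 of 8 lower calls (Slc16a1, Slc3a2 and Slc7a6) were lost, and in Treg over Teff cells 4 of 7 lower calls (Slc1a4, Slc2a1, Slc38a9 and Slc7a6). In anergic over naive cells 4 of 5 lower calls were lost (Slc7a5, Slc1a4, Slc16a10 and Slc36a1), and in anergic over Treg cells 3 of 7 higher calls (Slc2a8, Slc36a4 and Slc3a2). The calls of Slc36a4 and Slc2a3 in anergic over Teff cells stayed past the threshold under each alternative run.

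Some genes with several peaks changed in more than 1 direction, 2 to 8 of the 35 genes with more than 1 peak in each comparison (5.71% to 22.9%). Between anergic and Teff cells, 11 of the 55 genes had only higher calls, 12 only lower calls, 27 no call, and 5 both (Slc2a3, Slc2a8, Slc6a19, Slc16a10 and Slc38a1). Between anergic and naive cells 8 genes had both, 14 only higher, 24 only lower and 9 neither. Between Treg and Teff cells 2 genes had both (Slc2a8 and Slc7a1), 11 only higher, 20 only lower and 22 neither. The matching shares over all 14242 genes with a peak were not computed. These gene counts thus cannot be set against a background and are a description only.

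Motif letters were counted in the 300 bases around each peak centre on both strands, as a description without a test. TGANTCA, the AP-1 site, was found in 5 of 18 distal transporter peaks that were higher in anergic than in Teff cells, in 2 of 23 that were lower and in 5 of 71 that were neither, beside 31.7%, 9.52% and 11.8% of all distal peaks of those kinds. TGTGGT, the RUNX core, was found in 4 of 18, 11 of 23 and 15 of 71, beside 28.5%, 47.3% and 29.6%. TTGCATCA was found in 5 of the 154 peaks (3.25%), beside 0.736% of all peaks. The 5 were the promoters of Slc1a4 and Slc7a1, the Slc7a1 peak at -19.3 kb, the Slc7a5 peak at +9.0 kb and the Slc6a3 peak at -30.8 kb. ACGTG lay in 18 of 42 transporter promoters (42.9%), beside 25.3% of all promoters, and CACGTG, which contains it, in 6 (14.3%), beside 8.67%. Over all 154 transporter peaks, TGGAAA, the core of NFAT sites, lay in 32 (20.8%), ACAAAG, the TCF/LEF core, in 33 (21.4%) and TGACGTCA, the cyclic AMP response element, in 3 (1.95%). The shares over all peaks were 21.5%, 20.04% and 1.41%.

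Genes that act on these transporters showed changes in both directions. Of 56 peaks at 8 genes of chaperones and arrestins, 13 were higher and 11 lower in anergic than in Teff cells (23.2% and 19.6%, beside 15.9% and 16.8% of all peaks). For each gene of these lists named here, the peak is that of smallest adjusted p over the 6 comparisons among all its peaks. Txnip, whose product removes glucose carriers from the surface, had a peak at -2.6 kb with 39.8, 23.2 and 30.2 units in anergic, 146, 240.5 and 225 in Treg, 32.5, 61.1 and 68.3 in Teff, and 403 and 415 in naive cells, which set the naive and Treg libraries high and the anergic and Teff libraries low. Its relative Arrdc4 was higher at the promoter in anergic cells, by 1.87 ± 0.10 over naive cells on the log2 scale (limma adjusted p = 1.73e-12). Emb, a chaperone of lactate carriers, had a peak at -8.9 kb that was -1.61 ± 0.16 in Treg over Teff cells (limma adjusted p = 1.87e-07). Tbc1d4, which holds back glucose carrier vesicles, had one at +128 kb that was 5.13 ± 0.23 in anergic over naive cells (limma adjusted p = 5.96e-14).

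Of 55 peaks at 9 genes of transcription factors of nutrient uptake, 15 were higher and 10 lower in anergic than in Teff cells. These are 27.3% and 18.2%, beside 15.9% and 16.8% of all peaks. An intronic peak of Hif1a, the hypoxia factor, at +3.2 kb had 391, 359.5 and 363 units in anergic, 216, 270.3 and 189.9 in Treg, 113, 133 and 153 in Teff, and 25.2 and 19.4 in naive cells, in that order and without overlap of groups. The Myc peak at -3.7 kb was 2.60 ± 0.25 higher in anergic than in naive cells on the log2 scale (limma adjusted p = 1.24e-08). Of 38 peaks at 12 genes of amino acid sensing, 5 were higher and 6 lower in anergic than in Teff cells (13.2% and 15.8%, beside 15.9% and 16.8%). Over Treg cells 6 were higher and 12 lower (15.8% and 31.6%, beside 19.4% and 14.8%). Over naive cells 6 were higher and 11 lower (15.8% and 28.9%, beside 25.3% and 25.1%). Of 40 peaks at 12 genes of the first enzymes after uptake 11 were higher and 10 lower in anergic than in Teff cells (27.5% and 25.0%, beside 15.9% and 16.8%).

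Against naive cells the enzyme list had 18 higher and 8 lower peaks in anergic cells (45% and 20%, beside 25.3% and 25.1% of all peaks). It had 16 and 7 in Treg cells (40% and 17.5%, beside 22.3% and 23.0%), and 14 and 3 in Teff cells (35.0% and 7.5%, beside 22.7% and 17.4%). The asparagine synthetase gene Asns had a peak at its start site that was 3.78 ± 0.52 in anergic over naive cells on the log2 scale (limma adjusted p = 2.15e-06). The leucine sensor gene Sesn1 had a peak at +28.5 kb with 224, 266 and 239 units in Treg cells and 6.19 to 73.3 in the other libraries.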

How the data were processed

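Per the series' design text and the submitters' processing notes, the authors trimmed reads with Trimmomatic 0.38.1, aligned them to mm10 with Bowtie2 2.3.3.1 and sorted them with SAMtools 1.13. Genrich 0.5 called peaks per sample, with duplicate, mitochondrial and blacklist removal and transposase adjustment, and DiffBind 2.10.0 gave 38509 consensus peaks, per the same text. Adjustment for the transposase moves read ends to the cut, which sharpens peaks and bears on where a centre lies.

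The authors deposited 1 signal value per peak and library. Dividing a column by its smallest value gave whole numbers within 0.01 for 100.0% of values, so each signal is reads times a factor of 0.527 to 2.13 per read. How the factor was made is not given in the sources used here, nor whether peaks without reads were set to 1 read, as no value is 0.

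Starts were raised by 1. Peak centres on chromosomes (38441; 68 peaks lay on contigs) were given to the nearest of 45756 RefSeq transcript starts (GRCm38). The log2 of signal plus 1 was fitted with limma-trend (limma 3.58.1, R 4.3.3) over all 11 libraries with group as the only term, after the filterByExpr filter of edgeR 4.0.16 on recovered reads, which removed 16 peaks and left 38493, all 154 transporter peaks among them. P-values were adjusted by Benjamini-Hochberg over all peaks (threshold 0.05). Errors of fold changes are SE and those of group means SD. Fold changes on this scale understate changes of low peaks. The steps were tested on simulated data. Counting intervals are exact, at 95%, conditional on the summed reads.

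Alternatives were edgeR's quasi-likelihood test on recovered reads, scaling by TMM or by total reads in peaks, a pseudocount of 5, no filter, a replicate block, peaks within 100 kb, each library left out, and the 3 shallowest libraries left out, the last added after the depths were seen.

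Peaks were named by rule: per comparison the 5 higher and 5 lower transporter peaks of largest change that passed, did not overlap between groups and had a mean signal of at least 50, once per gene and direction, and for each core transporter the peak nearest to a start site and that of smallest adjusted p, the last also for genes of the pathway lists. The transporter families, gene lists, motifs and rule were chosen with earlier results of these data known. Promoters were centres within 1000 bases of a start. Markers of CD4 T cells, sort markers, B cells, myeloid cells, CD8, NK and innate-like T cells and erythroid cells were listed, and RNA-seq was not analysed here.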

Additional observations from a re-analysis of the deposited data

How the results depend on the processing

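The counts of transporter peaks higher or lower in the 6 comparisons, under edgeR, both scalings, the pseudocount of 5, no filter, the replicate block and peaks within 100 kb each stayed within 1.5 times the value given. Scaling by total reads nonetheless turned the balance of higher and lower peaks in anergic over Treg (26 and 37) and Treg over naive (34 and 33). Leaving out 1 library moved 2 of the counts further, and the same calls fell over all peaks too. Over all peaks, those lower in anergic over Treg cells fell from 14.8% to 11.2% without anergic 3. Those lower in Teff over naive cells fell from 17.4% to 9.47% without naive 1 and to 12% without naive 2. Transporter peaks lower in anergic over Treg cells numbered 16 without anergic 3 (range 16 to 28). Transporter peaks lower in Teff over naive cells numbered 17 without naive 1 and 20 without naive 2 (range 17 to 35). The other ranges, higher then lower, were 18 to 22 and 25 to 34 for anergic over Teff, 28 to 34 higher for anergic over Treg, 33 to 37 and 41 to 58 for anergic over naive, 11 to 17 and 25 to 38 for Treg over Teff, 21 to 30 and 33 to 51 for Treg over naive, and 28 to 34 higher for Teff over naive. Without the 3 shallowest libraries anergic over Teff had 21 higher and 36 lower, and Treg over naive 25 and 46.

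With a replicate block, in which equal replicate numbers are paired, anergic over Teff had 23 higher and 34 lower, anergic over Treg 33 and 29, anergic over naive 37 and 54, Treg over Teff 17 and 37, Treg over naive 28 and 48, and Teff over naive 34 and 32. Deviations from the group mean correlated at -0.11 to 0.16 over 15 pairs of same-numbered libraries (mean 0.04). Over 30 pairs of other numbers they correlated at -0.22 to 0.19 (mean -0.02). Deviations within a group sum to 0, so these sets are not independent and cannot show whether libraries were paired. The main fit has no pairing. Of 110 named values past the threshold, 98 (without naive 2) to 110 (pseudocount 5) stayed past it, and none changed sign.

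Counting error is largest at peaks with few reads in the naive libraries, whose folds move with the pseudocount, although these libraries held 45.7 and 48.1 M reads in peaks and were not the shallowest. Only 2 naive libraries were profiled, and the calls most often lost were promoter changes under 0.5 on the log2 scale. The cause of these losses was not tested.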

Other observations

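Marker lists of other cell types are given as summed signal. Of 5 peaks at B cell genes, from 2 of 8 genes, summed signal was 368 to 466 units in anergic, 537 to 562 in Treg, 377 to 515 in Teff and 638 to 670 in naive libraries. Of 13 peaks at 5 of 9 myeloid and dendritic genes, it was 4282 to 4700 in anergic, 2416 to 2784 in Treg, 3432 to 3591 in Teff and 2308 to 2414 in naive libraries, and Lyz2, Csf1r and Cd14 had no peak. The 13 peaks did not move together. In anergic cells 1 was higher and 2 lower over Teff, 4 and 2 over Treg, and 4 and 3 over naive cells. These are 7.69% and 15.4%, 30.8% and 15.4%, and 30.8% and 23.1%. The shares over all peaks were 15.9% and 16.8%, 19.4% and 14.8%, and 25.3% and 25.1%. Of 6 peaks at 3 of 6 erythroid and platelet genes, summed signal was 4469 to 4849 in anergic, 3201 to 3394 in Treg, 3597 to 3850 in Teff and 4107 to 4232 in naive libraries. Their part in the transporter results was not tested. Of 41 peaks at 5 of 6 CD4 T cell genes, 3 were higher and 3 lower in anergic than in Teff cells (7.32% each). In Treg over Teff cells 2 were higher and 10 lower (4.88% and 24.4%, beside 14.4% and 18.2% of all peaks). Of 45 peaks at sort marker genes 16 were higher and 7 lower in anergic than in Teff cells (35.6% and 15.6%). All peaks in anergic over Teff cells stood at 15.9% higher and 16.8% lower.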
